A study of Danio rerio with 12 samples.

Results

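The genes described here are 8 genes of the zebrafish dorsal organizer and the axial mesoderm that forms from it: gsc, lhx1a, foxa2, foxa3, noto, chrd, dkk1b and frzb. They were chosen by name, through the symbols given to the Ensembl identifiers of the count table, and all 8 were found among its 22737 genes. All 8 passed the filter on low counts in every comparison.

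Total RNA was counted per gene in 12 libraries, 2 in each of 6 groups. The series concerns Anp32e, a histone chaperone known for taking the variant H2A.Z out of chromatin, and nucleosomes that keep DNA unmethylated between germline and embryo. Shield embryos, 6 h after fertilization, came from wild type of strain Tu, from anp32e null of strain NHGRI, and from maternal null and paternal null crosses, both of strain Tu X NHGRI and named for the parent taken here to be null. In the shield groups strain and anp32e genotype change together, so that they cannot be told apart. The fifth group was embryos at the sphere stage, an earlier stage before the shield forms, that had received Anp32e protein. The other group is labelled as sperm from fish null for anp32e. The labels give no strain for these last groups, and the amount of protein injected is not given in the sources used here.

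The dorsal organizer, called the shield in fish, is the group of cells at the dorsal margin of the gastrula that patterns the body axis. Maternal factors acting through beta-catenin, and Nodal ligands, set it up. It then secretes proteins that block BMP and Wnt signals coming from the ventral and lateral embryo. Its own cells go inside and become the prechordal plate, below the future forebrain, and the notochord along the trunk. The RNA came from bulk samples, in which fewer cells of a type and less RNA per cell cannot be told apart.

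Library totals ran from 13523363 to 47688140 counts, and the shallowest was wild-type replicate 2. Within the null group, each cross and the injected group, the 2 libraries differed by little more than counting noise, with a chi-square per degree of freedom between 1.05 and 1.17. Each of these pairs was therefore counted as 1 sample. The wild-type pair lay much farther apart, at 95.2, and counts as 2 samples. The labels do not say that the wild-type libraries came from separate clutches, so p-values measure the spread between these samples, which may be technical. Among the shield samples that spread comes from wild type alone. A second fit took every library as a replicate. It treats the near-identical pairs as independent, and its p-values can be too small. Below, a gene is said to have risen or fallen only where its adjusted p was under 0.05 in both fits.

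The targeted gene was checked first. Levels are given as CPM, counts divided by the library's total and scaled to the same total in every library. For anp32e they were 2285 and 3172 in wild type and 81.2 and 80.5 in null embryos. Both crosses lay between them, at 1212 and 1226 CPM in maternal null embryos and 1420 and 1413 CPM in paternal null. The libraries labelled sperm went against their label. In them 7 oocyte genes summed to 6393 and 6913 CPM, with the egg coat gene zp3b alone at 3006 and 3419 CPM, while 6 sperm genes summed to 10.1 and 12.9 CPM. The same oocyte genes summed to between 59.0 and 158 CPM in shield libraries. The sperm genes summed to between 1.27 and 2.46 CPM in shield libraries and to 6.15 and 5.18 CPM in sphere embryos. They were thus also highest in the libraries labelled sperm, though at a low level. Both lists were chosen after their values were seen.

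Among the transcription factors, gsc encodes Goosecoid, a homeodomain repressor of the organizer and prechordal plate (Ensembl ENSDARG00000059073; chromosome 17, 19323178 to 19325685 in the coordinates headed Zv10). Its level was 66.9 and 52.4 CPM in wild type, 34.5 and 31.7 CPM in null, 50.8 and 53.8 CPM in maternal null embryos and 45.9 and 47.5 CPM in paternal null. The null libraries were the lowest of the shield stage and did not overlap any other group. Sphere embryos had 25.5 and 24.6 CPM, below all shield libraries.

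lhx1a encodes a LIM homeodomain factor of the organizer, also known as lim1 (ENSDARG00000014018; chromosome 15, 27770532 to 27777699). lhx1a counts came to 145.7 and 67.7 CPM in wild type, 40.1 and 41.1 CPM in null, 122.3 and 122.1 CPM in maternal null embryos and 106 and 103 CPM in paternal null. Null embryos were again below every other shield library, and both crosses lay between the wild-type libraries. Sphere embryos had 31.2 and 30.7 CPM. The wild-type libraries differed 2.15-fold from each other.

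The forkhead factor foxa2 acts in axial mesoderm, floor plate and endoderm (ENSDARG00000003411; chromosome 17, 42290591 to 42293092). Its level was 18.8 and 45.4 CPM in the wild-type libraries and 80.8 and 85.4 CPM in null. In maternal null it was 26.0 and 26.6 CPM, in paternal null 30.8 and 31.2 CPM, and in sphere embryos 12.2 and 13.9 CPM. The null libraries were above all others, and the crosses lay between the wild-type libraries, which differed 2.42-fold.

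foxa3, a related forkhead gene of the prechordal plate and endoderm (ENSDARG00000012788; chromosome 18, 46352555 to 46356251), did not share that order. It had 157.1 and 91.6 CPM in wild type, 98.04 and 98.1 CPM in null, 137.2 and 132.8 CPM in maternal null, 124.9 and 118.1 CPM in paternal null and 71.4 and 71.7 CPM in sphere embryos. All 3 other shield groups lay between the wild-type libraries.

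noto encodes Floating head, the homeodomain factor that notochord formation in zebrafish depends on (ENSDARG00000021201; chromosome 13, 14845115 to 14847112). It varied least among shield libraries, with 85.6 and 92.8 CPM in wild type, 105 and 106 CPM in null, 80.5 and 83.5 CPM in maternal null embryos and 82.2 and 87.2 CPM in paternal null. It was the only one of the 8 genes with its highest level in sphere embryos, at 203 and 200.5 CPM.

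Among the secreted proteins, chrd encodes Chordin, which binds BMP ligands outside the cell (ENSDARG00000006110; chromosome 15, 46557483 to 46594812). Its level was 366 and 198 CPM in wild type, 328 and 339 CPM in null, 208 and 202 CPM in maternal null, 239.6 and 235 CPM in paternal null and 167 and 169 CPM in sphere embryos. The wild-type libraries spanned all other shield libraries.

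dkk1b, which encodes the Wnt inhibitor Dickkopf1b that acts on Wnt co-receptors (ENSDARG00000045219; chromosome 12, 6432053 to 6434172), had 42.1 and 21.1 CPM in wild type. It had 28.3 and 28.0 CPM in null, 46.6 and 47.0 CPM in maternal null, 30.0 and 29.3 CPM in paternal null and 21.1 and 22.4 CPM in sphere embryos. Maternal null was above both wild-type libraries, and null and paternal null lay between them.

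frzb encodes a secreted Frizzled-related protein that binds Wnt ligands (ENSDARG00000018383; chromosome 9, 45031079 to 45038196). Its level was 23.7 and 40.3 CPM in wild type, 73.7 and 72.7 CPM in null, 22.8 and 23.0 CPM in maternal null embryos and 28.1 and 26.9 CPM in paternal null. Null embryos were above every other library. Sphere embryos had only 1.79 and 1.70 CPM, 5.45% of the mean wild-type shield level, the lowest such percentage of the 8 genes. The panels of CPM by library show these orders.

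**Figure D1:**
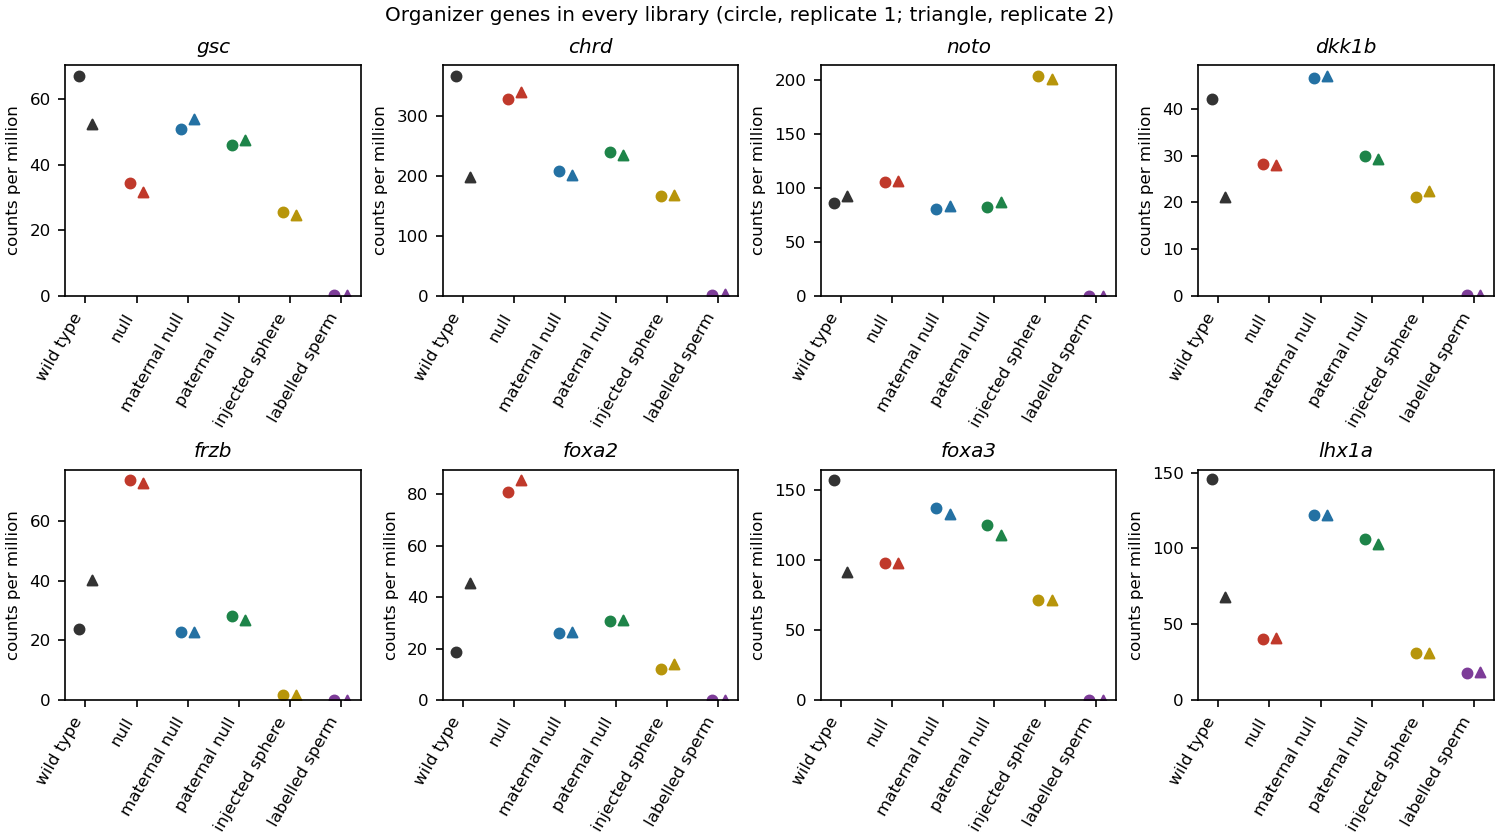
CPM (scaled counts, vertical axis, from 0) of each organizer gene in every library, by group along the horizontal axis, with a circle for replicate 1 and a triangle for replicate 2. The wild-type points lie apart for most genes (18.8 and 45.4 CPM for foxa2), while the points of the other embryo groups nearly coincide.

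The order of the group levels was the same on the CPM scale and after TMM scaling for all 8 genes. By the group means, gsc was highest in wild type, chrd, frzb and foxa2 in null, dkk1b, foxa3 and lhx1a in maternal null embryos and noto in sphere embryos. Since the wild-type libraries lie so far apart, many neighbours in these orders did not differ beyond their spread. The null level lay between the wild-type libraries for 3 of 8 genes (chrd, dkk1b and foxa3), the maternal null level for 5 and the paternal null level for 6. The share of all genes that lay between them was not computed, so these counts are not read as particular to the 8 genes.

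The comparison of null with wild-type embryos asks how organizer genes stand when anp32e is lost from both parents. foxa2 was 2.54-fold and frzb 2.28-fold higher in null embryos, lhx1a 2.50-fold and gsc 1.75-fold lower, in the fit with 1 sample per near-identical pair. The log2 fold changes of the other 4 genes were smaller than their SE: chrd differed by 0.30 ± 0.61 (SE, log2 fold change), noto by 0.26 ± 0.56, dkk1b by -0.10 ± 0.57 and foxa3 by -0.29 ± 0.58.

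None of the 8 passed in that fit (edgeR's quasi-likelihood test with Benjamini-Hochberg adjustment over 21167 genes), and DESeq2 on the same samples called 0. In the edgeR fit 3 of the 8 (frzb, foxa2 and lhx1a) had an unadjusted p under 0.05, beside 3332 of the 21167 genes. Over all genes 4.97% were called. With every library as a replicate, 4 of 8 passed, beside 36.2% of all genes, so the share among the 8 genes was near the background. foxa2 was higher by 1.34 ± 0.54 (SE, log2), with an adjusted p of 0.14 in edgeR with 1 sample per pair and 0.0419 with every library, and from 0.0381 to 0.428 over 5 alternatives. For frzb the log2 fold change was 1.19 ± 0.54, with adjusted p-values of 0.225 and 0.0189 in edgeR and from 0.0189 to 0.457 over the alternatives. lhx1a was lower, at -1.32 ± 0.60, with adjusted p-values of 0.219 and 0.00915 in edgeR and from 0.00915 to 0.298 over the alternatives. For gsc the log2 fold change was -0.80 ± 0.57, with adjusted p-values of 0.579 and 0.00221 in edgeR and from 0.00221 to 0.701 over the alternatives.

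These values depended on the wild-type library used. Against replicate 2 alone, null embryos had a log2 fold change of 0.78 for foxa2, 0.78 for frzb and -0.82 for lhx1a. Against replicate 1 alone the same genes stood at 2.29, 1.78 and -1.70. For gsc the values were -0.74 and -0.86. The direction held against either library for 6 of 8 genes. It turned for dkk1b (0.33 and -0.43) and for foxa3 (0.01 and -0.53), and for chrd it came to 0.66 and 0.01. The share of all genes that kept their direction was not computed.

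Null embryos were then compared with each cross, in which 1 parent was of the wild-type strain. These comparisons use none of the wild-type libraries for their level, though the wild-type libraries set their spread. Relative to maternal null embryos, null embryos had 3.201-fold more frzb, 3.16-fold more foxa2 and 1.63-fold more chrd. They had 3.01-fold less lhx1a, 1.66-fold less dkk1b and 1.58-fold less gsc. All 6 passed with every library as a replicate, at adjusted p-values from 0.00599 (gsc) to 0.0478 (dkk1b) in edgeR, where 32% of all genes did. With 1 sample per pair 0 passed in edgeR, with adjusted p-values of 0.284 for frzb, 0.292 for foxa2 and 0.344 for lhx1a, beside 1.08% of all genes. In that fit 3 of the 8 had an unadjusted p under 0.05, beside 1919 of 21167 genes, and DESeq2 called 0 of the 8.

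Against paternal null embryos, foxa2 was 2.68-fold and frzb 2.67-fold higher in null, and lhx1a was 2.57-fold and gsc 1.41-fold lower. With every library these 4 passed, at adjusted p-values of 0.0345, 0.0105, 0.00935 and 0.0156 in edgeR, beside 36.1% of all genes. With 1 sample per pair 0 passed (1.76% of all genes), and DESeq2 called 0. In that edgeR fit 3 of the 8 had an unadjusted p under 0.05, beside 2416 of 21167 genes. dkk1b differed between null and paternal null by -0.07 ± 0.65 (SE, log2), against -0.73 ± 0.65 between null and maternal null. All comparisons of null embryos share the null libraries.

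**Figure D2:**
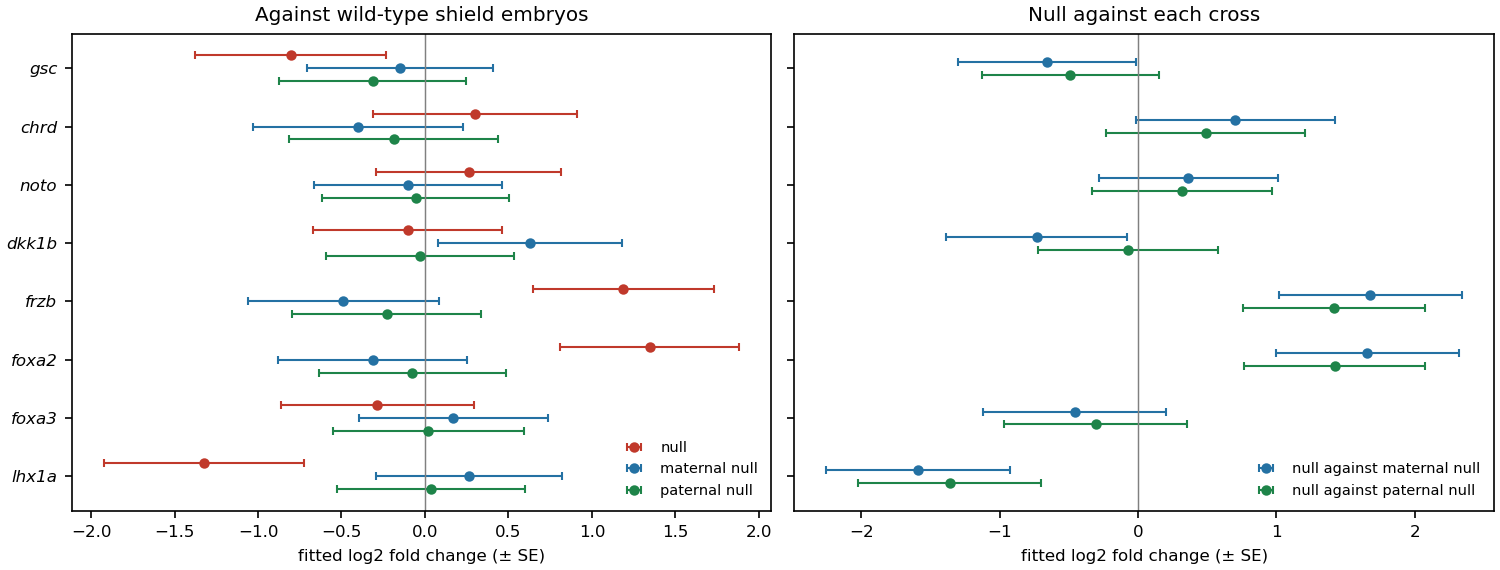
Fitted log2 fold changes (horizontal axis, points with SE bars) of the 8 organizer genes among shield embryos, from the fit with 1 sample per near-identical pair. In the comparisons of null embryos frzb and foxa2 lie to the right (1.19 and 1.34 against wild type) and lhx1a to the left (-1.32), and no gene passed the adjusted threshold.

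No organizer gene passed the threshold between either cross and wild type. Maternal null embryos had 0 of 8 genes past the threshold with 1 sample per pair and 0 with every library in edgeR, and 0 and 1 at an unadjusted p under 0.05. Over all genes 0.567% and 6.01% were called, and 836 of 21167 and 4417 of 19166 had an unadjusted p under 0.05. Their largest difference was dkk1b, higher by 0.63 ± 0.55 (SE, log2), which was 1.07 against wild-type replicate 2 and 0.28 against replicate 1. Its adjusted p in edgeR was 0.164 where every library was a replicate and 1 with pairs summed. Paternal null embryos also had 0 of 8 in both fits, beside 0.236% and 7.02% of all genes. At an unadjusted p under 0.05 they had 0 and 1, beside 1015 of 21167 and 4620 of 19166 genes. Their largest difference was gsc, at -0.31 ± 0.56. DESeq2 called 0 of 8 in either cross.

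The direction against wild type held with either wild-type library for 3 of 8 genes in maternal null (gsc, chrd and dkk1b) and for 1 of 8 in paternal null (gsc). No share of all genes was computed beside these counts. The reciprocal crosses were compared with each other to ask whether it matters which parent carried the mutation. Again 0 of 8 passed in either edgeR fit, beside 0.491% and 9.28% of all genes, and 0 in DESeq2. An unadjusted p under 0.05 in edgeR was reached by 0 and 1 of the 8, beside 864 of 21167 and 4874 of 19166 genes. dkk1b showed the largest difference, 1.58-fold higher in maternal null, with a log2 fold change of 0.66 ± 0.65 (SE) and a 95% interval from -0.62 to 1.94. A p that misses the threshold does not show that the crosses act alike, since the SE of each of these differences was between 0.64 and 0.72.

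The interaction of mother and father asks whether a null father goes with another difference when the mother is null than when the mother is wild type. For frzb it was 1.91 ± 0.87 (SE, log2), for foxa2 1.73 ± 0.87 and for lhx1a -1.62 ± 0.86. With every library frzb and lhx1a passed (edgeR, adjusted p = 0.0261 and 0.0307), as did 17% of all genes. With 1 sample per pair 0 of 8 passed, with adjusted p-values of 0.80 and 0.925, beside 0.317% of all genes. In that fit 2 of the 8 had an unadjusted p under 0.05, beside 1168 of 21167 genes, and DESeq2 called 0 of the 8.

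Ratios of the counts of 2 genes within a library do not depend on its total. Per 100 counts of foxa3 there were 11.96 and 49.6 counts of foxa2 in the wild-type libraries, 82.4 and 87.1 in null embryos, 18.9 and 20.0 in maternal null embryos and 24.7 and 26.4 in paternal null. By this ratio null embryos were above both wild-type libraries, and the crosses lay between them. Gene length was not used, so the ratio is compared between libraries only.

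For the Wnt inhibitors, null was also above both wild-type libraries. Per 100 counts of dkk1b there were 56.2 and 191 counts of frzb in the wild-type libraries, 261 and 259 in null embryos, 49.0 and 48.9 in maternal null, 93.5 and 92.0 in paternal null and 8.48 and 7.59 in sphere embryos. For lhx1a per 100 counts of gsc, the null libraries (116 and 129.6) reached wild-type replicate 2 (129.2), while wild-type replicate 1 (218) was near both crosses (216 to 241). For chrd per 100 counts of gsc the null libraries, at 949 and 1068, were above wild type at 546 and 378. Sphere embryos, at 654 and 684, were also above both wild-type libraries. Maternal null had 410 and 375, and paternal null 522 and 495.

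The gap between the wild-type libraries was set beside the gap between null and maternal null embryos, which share no library with it. This comparison was chosen after its values were seen. On the log2 CPM scale, wild-type replicate 2 minus replicate 1 was 1.27 for foxa2, 0.77 for frzb, 0.12 for noto, -0.35 for gsc, -0.78 for foxa3, -0.997 for dkk1b and -1.11 for lhx1a. Null minus maternal null was 1.66 for foxa2, 1.68 for frzb, 0.36 for noto, -0.66 for gsc, -0.46 for foxa3, -0.74 for dkk1b and -1.59 for lhx1a. The sign was shared by these 7 genes and opposite for chrd, at -0.88 within wild type and 0.70 between null and maternal null. Over the 17384 genes compared, 60.3% shared their sign. With paternal null in place of maternal null 7 of 8 shared it, chrd again being the other, beside 64.2% of 17454 genes. What separates the wild-type libraries was not tested.

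**Figure D3:**
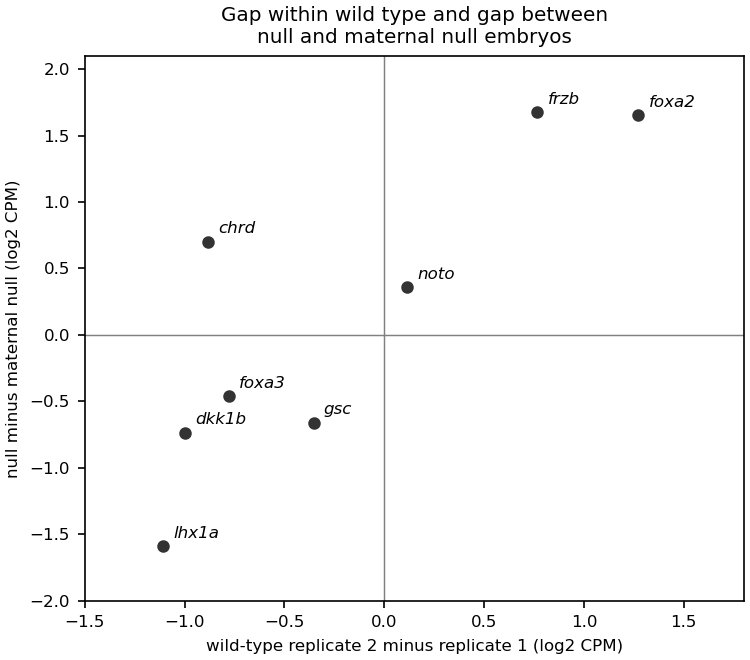
Difference between the wild-type libraries (horizontal axis, replicate 2 minus replicate 1, log2 CPM) against the difference of null minus maternal null embryos (vertical axis, log2 CPM), 1 point per organizer gene. Of the 8 genes 7 lie in the lower left or upper right quadrant, from lhx1a (-1.11, -1.59) to foxa2 (1.27, 1.66), and chrd lies in the upper left.

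Sphere embryos that had received Anp32e protein were compared with wild-type shield embryos. Stage and injection change together here and cannot be told apart. Whether strain differs too is not known, since the labels give none for the sphere embryos. gsc fell 3.08-fold, lhx1a 4.36-fold and frzb 24.5-fold from the shield to the sphere libraries, and foxa3 2.22-fold (adjusted p = 0.0114, 0.00737, 0.00135 and 0.0463 in edgeR with 1 sample per pair). These 4 of 8 genes stand beside 28.7% of all genes. An unadjusted p under 0.05 was reached by 7 of the 8, beside 9589 of 22712 genes. The call of foxa3 was lost without either library labelled sperm, which share the estimate of the spread, with adjusted p-values of 0.165 and 0.166 in edgeR.

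foxa2 (log2 fold change -1.74 ± 0.62, SE), chrd (-1.10 ± 0.42) and dkk1b (-0.89 ± 0.42) had adjusted p-values of 0.0583, 0.0719 and 0.132 in edgeR. noto stood apart, at 0.78 ± 0.35, with an adjusted p of 0.112, and 0.000594 with every library. With every library all 8 passed in edgeR, 7 lower and noto higher at the sphere stage, beside 63.7% of all genes. With 1 sample per pair the log2 fold changes kept their sign for 8 of 8 genes without either wild-type library. How many of all genes kept theirs was not counted. Leaving out a wild-type library leaves the libraries labelled sperm alone to set the spread, so only the fold changes are read there. TMM scaling lowers sphere levels by 0.41 on the log2 scale relative to wild-type CPM, so that noto was 2.26-fold higher in CPM and 1.72-fold higher in the fit. The median of the 8 genes was -1.39, against 0.00 for all genes tested.

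**Figure D4:**
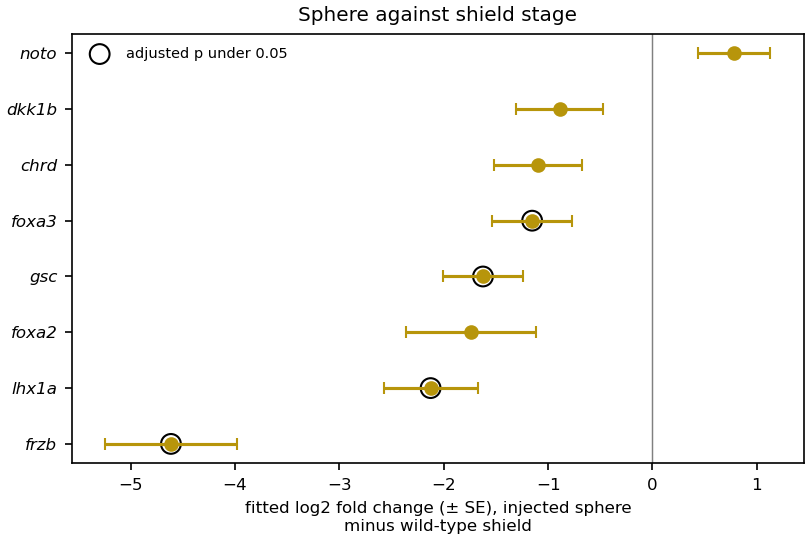
Fitted log2 fold changes (horizontal axis, points with SE bars) of the 8 organizer genes, injected sphere minus wild-type shield embryos, with a ring around those with an adjusted p under 0.05. frzb lies farthest to the left at -4.61, and noto is the gene to the right of 0, at 0.78.

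The genes known for setting up the organizer were described from a list of 10. These are the maternal factors hwa, ctnnb1 and ctnnb2, the dorsal homeobox gene dharma, the Nodal ligands ndr1 and ndr2 with their partner gdf3 and co-receptor tdgf1, and the signal mediators foxh1 and smad2. Between null and wild type 0 of 10 passed with 1 sample per pair, and with every library 5 were lower and 0 higher, beside 4.97% and 36.2% of all genes. The median log2 fold change was -0.60, against -0.04 for all genes tested. gdf3 had 223 and 137 CPM in the wild-type libraries and 64.0 and 66.1 CPM in null, a 2.67-fold difference (edgeR, adjusted p = 0.00142 with every library, 0.206 with pairs summed). ctnnb2, a beta-catenin gene, had 258 and 225 CPM in the wild-type libraries and 144 and 147 CPM in null (adjusted p = 0.00351 and 0.718 in edgeR).

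dharma was low in all shield libraries and highest in maternal null embryos, at 1.62 and 1.61 CPM. It had 0.76 and 1.21 CPM in paternal null, 0.68 and 0.44 CPM in the wild-type libraries and 0.35 and 0.38 CPM in null. ndr1 was at 14.1 and 2.00 CPM in the wild-type libraries, the widest gap of the ligands, and at 2.101 and 1.89 CPM in null. ndr2, the other Nodal ligand of the early gastrula, had 29.6 and 26.3 CPM in the wild-type libraries and 16.5 and 17.1 CPM in null. Against wild type 1 of 10 was higher in maternal null (dharma) and 1 lower in paternal null (ndr2) with every library, beside 6.01% and 7.02% of all genes, and 0 with pairs summed. From wild-type shield to sphere embryos 1 of 10 fell (ndr2, to 14.6 and 12.8 CPM), beside 28.7% of all genes called.

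A list of 10 other genes for secreted dorsal factors held copies of nog, fst and sfrp1, and lft1, lft2, admp and twsg1. Between null and wild type 0 of 10 passed with pairs summed, beside 4.97% of all genes. With every library 0 of the 8 tested passed, beside 36.2%. Against maternal null 0 of 10 passed with pairs summed, beside 1.08% of all genes. With every library 4 of the 8 tested were higher in null than in maternal null, beside 32%. The copies are named by identifier, since the symbol table gives them 1 name. Against paternal null 5 of the 8 tested with every library were higher in null, beside 36.1% of all genes called, and 1 of 10 passed with pairs summed, beside 1.76%. The sfrp1 gene ENSDARG00000035521, whose protein family binds Wnt ligands like that of frzb, had 118 and 239 CPM in wild type, 334 and 337 CPM in null, 125 and 127 CPM in maternal null embryos and 115 and 118 CPM in paternal null. The wild-type libraries differed as those of frzb did, with replicate 2 the higher. A gene for the BMP antagonist Noggin, nog ENSDARG00000058819, had 16.5 and 26.5 CPM in wild type, 37.1 and 36.4 CPM in null, and between 15.1 and 18.7 CPM in the crosses.

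The other nog gene, ENSDARG00000053528, rose in null relative to paternal null embryos (edgeR, adjusted p = 0.0183 with pairs summed and 0.0204 with each library as a replicate). It had 41 counts in the null libraries together and 0 in paternal null, which makes null at least 13.1-fold higher with a floor of 3 counts over the group. The wild-type libraries had 0.04 and 0.52 CPM of it. From wild-type shield to sphere embryos 3 of the 10 genes for secreted factors fell, beside 28.7% of all genes called. These were nog ENSDARG00000058819 (9.61-fold), sfrp1 ENSDARG00000035521 (3.72-fold) and the Nodal antagonist lft1 (2.93-fold).

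Among 16 other genes of axial mesoderm, 5 were higher and 4 lower in null than in wild type with every library, beside 36.2% of all genes called. With pairs summed 1 of 16 passed, beside 4.97%. That gene rose in both fits and was the shh gene ENSDARG00000038867, which encodes a Hedgehog ligand. It had 0.32 and 0.81 CPM in the wild-type libraries and 3.89 and 3.96 CPM in null (edgeR, 7.35-fold, adjusted p = 0.00614). The other shh entry, ENSDARG00000068567, had 1.15 and 7.62 CPM in the wild-type libraries. In null it had 8.83 and 7.73 CPM, close to wild-type replicate 2. otx2a, a homeobox gene of the anterior neural plate and prechordal region, had 39.8 and 48.1 CPM in the wild-type libraries and 104.9 and 98.7 CPM in null (adjusted p = 0.193 and, with every library, 0.00283 in edgeR).

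The paralogue of lhx1a differed in the same direction as it. lhx1b had 13.9 and 9.10 CPM in wild type, 3.50 and 3.21 CPM in null and between 8.22 and 9.68 CPM in the crosses (edgeR, adjusted p = 0.13 and, with every library, 0.000949). hhex, a homeobox gene of dorsal mesendoderm and the yolk layer, had 1.15 and 1.33 CPM in the wild-type libraries and 0.47 and 0.52 CPM in null. The forkhead gene foxa was at 114 and 60.3 CPM in the wild-type libraries and at 46.0 and 44.3 CPM in null, below both. With pairs summed 10 of the 16 genes were lower in sphere than in wild-type shield embryos, where 28.7% of all genes were called.

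The ventral side was described by 18 tested entries for ventral and BMP pathway genes. The Wnt ligand gene wnt8a is among them under both ENSDARG00000052910 and ENSDARG00000078507, whose coordinates overlap. In null embryos 5 of the 18 were higher and 3 lower than in wild type with every library, beside 36.2% of all genes called. Both wnt8a entries were among the 5, so these are not 5 separate loci. With pairs summed 1 of 18 passed, beside 4.97%. It was tp63, a factor of the non-neural ectoderm, which rose in both fits, from 3.70 and 4.14 CPM to 17.8 and 17.6 CPM (edgeR, adjusted p = 0.0123). vent and ved, homeobox repressors that keep organizer genes such as gsc out of the ventral side, were lower in null with every library. vent had 207 and 118 CPM in the wild-type libraries and 78.2 and 80.8 CPM in null, and ved had 325 and 357 CPM in the wild-type libraries and 198 and 195.5 CPM in null. Their adjusted p-values with 1 sample per pair were 0.481 and 0.687 in edgeR. The homeobox gene vox, also on the list, did not share this. It had 263 and 217 CPM in the wild-type libraries and 260 and 256 CPM in null, which lay between them. Summed, the ventral list stood at 2163 and 2298 CPM for wild-type replicates 1 and 2, and at 2482 and 2493 CPM for null. For maternal null the sum was 2466 and 2483 CPM, and for paternal null 2028 and 2006 CPM. Both overlapping wnt8a entries enter these sums. Null libraries had 274.9 and 285.6 CPM of ENSDARG00000052910, against 83.5 and 140.7 CPM for wild-type replicates 1 and 2. For ENSDARG00000078507 null stood at 184.9 and 191.5 CPM, against 57.1 and 91.25 CPM. The higher null sum is therefore not read as a rise of the list.

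Markers of other layers were described mainly between null and wild-type embryos. Of 21 genes of the enveloping layer, the outer epithelium of the embryo, 9 rose in null relative to wild type, and 17 were higher with every library, beside 4.97% and 36.2% of all genes called. Their sum was 6194 and 2920.3 CPM in wild type, 12562 and 12617 CPM in null, 5384 and 5405 CPM in maternal null, 15321 and 15314 CPM in paternal null and 1466 and 1474 CPM in sphere embryos. The highest sum was that of paternal null. Against wild type with every library, 9 of the 21 were higher in maternal null and 15 in paternal null, beside 6.01% and 7.02% of all genes called. With pairs summed these were 1 and 3, beside 0.567% and 0.236%.

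Of 10 genes of the yolk syncytial layer, the nuclei-bearing layer at the yolk surface, 6 rose in null relative to wild type, beside 4.97% of all genes called. With every library 8 were higher and 1 lower, beside 36.2%. The lower gene was mxtx2, with 6.93 and 2.07 CPM in the wild-type libraries and 1.32 and 1.27 CPM in null. mxtx1 (21.5 and 22.5 CPM in null) lay between the wild-type libraries (23.6 and 15.9 CPM). The higher null sum given next therefore does not stand for every gene of the list. Summed, the list stood at 153 and 155 CPM for wild-type replicates 1 and 2, and at 515 and 523 CPM for null. The crosses had between 280.2 and 283 CPM, and sphere embryos 151 and 146 CPM. The near-equal wild-type and sphere sums hide opposite changes. From wild-type shield to sphere embryos 4 of the 10 fell and 1 rose, beside 28.7% of all genes called. With every library 7 were lower and 1 higher, beside 63.7%. The gene that rose was mxtx2, which reached 52.8 and 51.0 CPM at the sphere stage. Of 7 endoderm genes 1 was higher (sox17) and 3 lower with every library (36.2% of all genes). With 1 sample per pair 0 passed (4.97%). The 3 lower genes were mixl1 and the cxcr4 copies ENSDARG00000041959 and ENSDARG00000057633. Null libraries had 50.4 and 51.4 CPM of mixl1, against 336 and 75.4 CPM for wild-type replicates 1 and 2. Summed over the 7 genes, null stood at 657 and 677 CPM, below the wild-type libraries at 1258 and 799 CPM. That sum includes the 3 lower genes, and the remaining genes did not share the fall. Null libraries had 100.1 and 100.8 CPM of sox32, against 72.2 and 99.2 CPM for wild-type replicates 1 and 2. For gata5, null (51.7 and 54.8 CPM) lay between the wild-type libraries (71.7 and 37.6 CPM). The same held for gata6, with null at 63.85 and 68.8 CPM and the wild-type libraries at 72.0 and 40.2 CPM. sox17, which like foxa2 marks endoderm, had 6.41 and 22.1 CPM in wild type, 47.7 and 45.0 CPM in null, 12.9 and 12.6 CPM in maternal null embryos and 16.2 and 15.1 CPM in paternal null. Of 11 paraxial and marginal mesoderm genes tested with every library 3 were higher and 1 lower, beside 36.2% of all genes called, and 1 of 12 (tbx6) passed with pairs summed, beside 4.97%. The part of these layers in the values of the organizer genes was not tested.

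The genes with the most similar pattern were found over 6 embryo samples (wild-type replicates 1 and 2, null, maternal null, paternal null and sphere), as the smallest root mean square difference of centred log2(CPM + 1) among 13336 genes. For noto they were flcn (0.06) and arl2bp (0.06), for foxa3 trappc12 (0.07) and prickle3 (0.10), and for gsc cited4a (0.10) and rbm5 (0.10). chrd was closest to ENSDARG00000036175 (0.10) and znf319 (0.10), and dkk1b to mapk13 (0.11) and ENSDARG00000102699 (0.13). The differences were larger for frzb, foxa2 and lhx1a. The neighbours were crabp2 (0.14) and ENSDARG00000103129 (0.18) for frzb, and tnfsf10l3 (0.12) and fabp1 (0.13) for foxa2. For lhx1a they were ENSDARG00000104464 (0.15) and ENSDARG00000101149 (0.17). The measure is not scaled to a gene's own range over the samples, so it does not rank the 8 genes by likeness of pattern. Some of these neighbours had low levels, where the added 1 CPM shrinks log2 differences. tnfsf10l3 ran from 0.02 CPM in sphere embryos to 5.59 CPM in null. ENSDARG00000104464 ran from 0.43 CPM in sphere embryos to 6.01 CPM in wild-type replicate 1. None of the neighbours named was another of the 8 organizer genes. The closest pair among the 8 was dkk1b and foxa3, at 0.19. For frzb the nearest of the 8 was foxa2, at 0.87, and for noto it was chrd, at 0.73.

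In the libraries labelled sperm the 8 genes together had 20.8 and 21.6 CPM, against 609 to 906 CPM in shield libraries of wild type. lhx1a made up most of that. Its values there and those of the other genes are given as levels only, since these libraries went against their label.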

How the data were processed

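Unnormalized read counts of Ensembl genes were deposited by the authors in 1 table, with a lowest maximum over libraries of 10 counts. The submitters' processing notes name Novoalign 2.8 and DESeq2, without saying what each was used for. The sources used here do not give the read counter, annotation release or strand setting, so reads from overlapping or antisense genes cannot be told apart. RNA libraries were stranded TruSeq after Ribo-Zero, per the labels. Symbols came from a table of Ensembl identifiers (20669 of 22737 matched), which gives some paralogues 1 name. No sequences were used.

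Near-identical pairs (chi-square per degree of freedom under 1.5 over genes with at least 20 counts) were summed. Counts were tested in edgeR 4.0.16 (R 4.3.3) by the robust quasi-likelihood test with TMM scaling, filterByExpr and Benjamini-Hochberg adjustment at 0.05: 5 shield samples (1 residual degree of freedom, common biological coefficient of variation 0.344) or 8 samples of all groups (2 degrees of freedom, 0.262). Alternatives were every library as a replicate (4 degrees of freedom, 0.167), a replicate block, DESeq2 1.42.0, RLE scaling, no filter and each library left out. Levels are CPM on library totals. Wilson intervals (95%) and the floor of 3 counts cover counting error only. The genes and lists were chosen with earlier results of these data known. Named from each list were genes among the up to 3 per direction with the largest change past the threshold with every library; the genes of the label check were chosen after their values were seen.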

Additional observations from a re-analysis of the deposited data

Results flagged for a closer look

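Organizer genes had counts in the libraries labelled sperm, which no comparison above contrasts with another group and which carry oocyte genes. lhx1a had 18.2 and 18.5 CPM there (866 and 715 counts, Wilson 95% intervals 17.0 to 19.4 and 17.2 to 19.9 CPM), against 40.1 to 145.7 CPM in shield libraries and 31.2 and 30.7 CPM in sphere embryos. chrd had 1.93 and 2.48 CPM, gsc 0.29 and 0.23 CPM and dkk1b 0.210 and 0.207 CPM, each above the limit of 3 counts in both libraries (0.06 and 0.08 CPM). noto and foxa3 had 2 counts in each library, frzb 2 and 5, and foxa2 2 and 0. In the second library the limit of 3 counts is 0.0774 CPM, and the Wilson interval of foxa2 reaches 0.0992 CPM. These levels have no untreated sperm or oocyte library beside them, and their source was not tested.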

How the results depend on the processing

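Every fold change of an organizer gene kept its direction under DESeq2, RLE scaling and no filter on low counts (192 values, 189 on the same side of the threshold, 3 now past it: chrd and foxa2 in sphere embryos with DESeq2, foxa2 also with RLE). With every library as a replicate, the organizer genes called came to 4 for null against wild type, 6 against maternal null, 4 against paternal null, 2 for the interaction and 8 for sphere embryos, and with a replicate block to 4, 5, 4, 2 and 8. All genes called, with 1 sample per pair, with every library, with every library and the replicate block, and with DESeq2, were 1052, 6938, 6155 and 512 for null against wild type, 120, 1151, 568 and 53 for maternal null, 50, 1346, 640 and 5 for paternal null, 104, 1778, 1119 and 49 between the crosses. They were 228, 6129, 5339 and 74 for null against maternal null, 373, 6915, 6199 and 159 against paternal null and 67, 3261, 2225 and 8 for the interaction. For sphere embryos the first 3 were 6514, 13540 and 13429. Whether the replicate numbers pair libraries cannot be told where a pair is near-identical.

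Leaving out 1 library at a time with pairs summed kept 0 organizer genes called in every comparison among shield embryos and gave 4 to 8 for sphere embryos. All genes called then numbered 924 to 1086 for null against wild type, 103 to 122 for maternal null against wild type, 43 to 51 for paternal null against wild type and 89 to 106 for maternal against paternal null. They numbered 187 to 231 for null against maternal null, 297 to 377 for null against paternal null, 46 to 61 for the interaction and 4341 to 11684 for sphere embryos. Without a wild-type library the summed shield samples leave no residual degree of freedom, so only fold changes were given. In the summed fit of all groups the libraries labelled sperm alone then set the spread, so sphere counts from those fits do not measure strength. With every other library as a replicate, leaving out a wild-type library leaves only near-identical pairs to set the spread among shield embryos. For sphere embryos the libraries labelled sperm also enter it. Organizer genes and all genes called then came to 6 to 7 and 11393 to 14657 for null against wild type, 6 and 9735 to 11257 for maternal null against wild type, 8 and 10343 to 10682 for paternal null against wild type and 7 and 10480 to 10487 for maternal against paternal null. They came to 8 and 13524 to 13697 for null against maternal null, 7 and 14223 to 14369 for null against paternal null, 8 and 11273 to 12259 for the interaction and 8 and 14459 to 14481 for sphere embryos.

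Leaving out 1 library turned the sign of some log2 fold changes against wild type, none of which had been called; their ranges follow with pairs summed and with every library. In null embryos they were dkk1b (-0.43 to 0.33 and -0.44 to 0.33) and foxa3 (-0.53 to 0.015 and -0.54 to 0.0075). In maternal null embryos they were noto (-0.26 to 0.066 and -0.26 to 0.057), frzb (-0.90 to 0.078 and -0.90 to 0.069), foxa2 (-0.87 to 0.61 and -0.88 to 0.60), foxa3 (-0.097 to 0.47 and -0.10 to 0.47) and lhx1a (-0.13 to 0.77 and -0.14 to 0.76). In paternal null embryos they were chrd (-0.50 to 0.15 and -0.51 to 0.15), noto (-0.24 to 0.11 and -0.24 to 0.10), dkk1b (-0.38 to 0.38 and -0.39 to 0.38), frzb (-0.66 to 0.34 and -0.66 to 0.33), foxa2 (-0.66 to 0.85 and -0.66 to 0.84), foxa3 (-0.25 to 0.30 and -0.26 to 0.29) and lhx1a (-0.36 to 0.52 and -0.37 to 0.51). The library left out was a wild-type one each time, except that foxa3 in paternal null also turned without paternal null replicate 1 (-0.026). In paternal null foxa3 also turned with every library (-0.0059) and foxa2 with the replicate block (0.0033). Each organizer gene had at least 82 counts over any group of embryos. For noto the 95% counting intervals of the wild-type libraries overlap (82.1 to 89.3 and 87.8 to 98.1 CPM).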
